A study of Homo sapiens with 19 samples.

Results

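The expression of 8 genes of the interleukin-1 (IL-1) system was followed in THP-1 cells with and without vitamin C (vit C). The genes were IL1A, IL1B and IL18 (cytokines), IL1RN (the receptor antagonist), IL1R1, IL1R2 and IL1RAP (receptor chains) and CASP1 (the processing protease). They were taken by gene name from the array's annotation and had 14 probes, of 31033 gene names and 50238 probes in all. THP-1 is a human monocytic cell line. Every flask, control flasks included, had first been differentiated with 30 nM of the phorbol ester PMA and rested, and then received 0.1 mM vit C or no addition (untreated, UT). RNA of the adherent cells was taken 8, 24, 48 and 96 h after vit C was added and hybridized to 19 one-colour microarrays. The UT groups held 2, 3, 2 and 3 arrays at 8, 24, 48 and 96 h, and the vit C groups held 3, 2, 2 and 2. The cells are 1 line that PMA has driven to a macrophage-like state, and the arrays measure its RNA, not the secreted or processed cytokines.

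IL-1 alpha and IL-1 beta are inflammatory cytokines that bind the receptor IL1R1, which then recruits the accessory chain IL1RAP to pass the signal on. The system carries its own brakes. IL1RN binds IL1R1 without starting a signal, and IL1R2 is a decoy that captures IL-1 but lacks the signalling domain. IL-1 beta and IL-18 are made as inactive precursors that caspase-1, the product of CASP1, cuts inside the inflammasome. Monocytes and macrophages are a main source of these cytokines, and both the antagonist and the decoy receptor are known to be regulated in these cells.

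In the RefSeq annotation (GRCh38.p14), 5 of the 8 genes lie on chromosome 2. IL1R2 (chr2:101991960-102028544) and IL1R1 (chr2:102070390-102179874) are neighbours, and IL1A (chr2:112773925-112784493), IL1B (chr2:112829751-112836779) and IL1RN (chr2:113099360-113134014) form a further group. IL1RAP is at chr3:190514085-190659750, CASP1 at chr11:105025443-105036686 and IL18 at chr11:112143260-112164094. Since the measurement of each gene rests on 1 oligonucleotide of 60 bases, the sequences behind the main values are given here as printed on the array, complete for IL18, CASP1 and the second IL1R2 probe and as the first 30 bases for the others.
IL1A: ttattattcttcataacaattttaggagga
IL1B: ggaatcaattcaatttggactggtgtgctc
IL18: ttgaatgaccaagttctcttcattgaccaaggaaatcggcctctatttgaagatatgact
IL1RN: tattcctgcatttgtgaaatgatggtgaaa
IL1R1: ggggaagggtctacctctgactgtgatatt
IL1R2: caaacacagaactggaaaagcagatggtct
IL1R2, second probe: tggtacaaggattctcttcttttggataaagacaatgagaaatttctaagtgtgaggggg
IL1RAP: aattaatggttttaaatatatgctataggg
CASP1: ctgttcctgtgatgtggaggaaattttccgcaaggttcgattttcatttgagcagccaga
Where a gene had several probes (IL1RN, IL1R1, IL1R2 and IL1RAP), the brightest was used as its value. The second IL1R2 probe is shown because it repeated the decoy receptor's measurement with other bases. CASP1 has close relatives beside it in the genome (CARD16, CARD17 and CARD18), and cross-hybridization of its probe with them was not tested.

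IL1R2 and IL1RN are the members whose levels differed most between vit C and UT cells, in opposite directions, so the 250 bases before their annotated starts that hold motif matches are shown from the RefSeq promoter table (GRCh38.p14, plus strand). The capitals mark matches on either strand to AP-1 (TGANTCA), an NF-kB form (GGNNNTNCC), PU.1 (GAGGAA) or a TATA box (TATAAA).
IL1R2, chr2:101991710-101991959: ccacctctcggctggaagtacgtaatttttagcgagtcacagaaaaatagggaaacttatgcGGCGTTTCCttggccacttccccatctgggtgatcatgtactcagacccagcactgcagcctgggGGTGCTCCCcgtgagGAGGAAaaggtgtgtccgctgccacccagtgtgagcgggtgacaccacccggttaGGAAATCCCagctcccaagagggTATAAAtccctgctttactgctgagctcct
IL1RN, chr2:113117721-113117970: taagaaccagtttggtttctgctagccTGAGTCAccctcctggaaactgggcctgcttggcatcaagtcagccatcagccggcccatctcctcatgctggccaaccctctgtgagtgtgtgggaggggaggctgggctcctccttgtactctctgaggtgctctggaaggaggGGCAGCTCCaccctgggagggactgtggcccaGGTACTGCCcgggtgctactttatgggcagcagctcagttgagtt
IL1RN, chr2:113127348-113127597: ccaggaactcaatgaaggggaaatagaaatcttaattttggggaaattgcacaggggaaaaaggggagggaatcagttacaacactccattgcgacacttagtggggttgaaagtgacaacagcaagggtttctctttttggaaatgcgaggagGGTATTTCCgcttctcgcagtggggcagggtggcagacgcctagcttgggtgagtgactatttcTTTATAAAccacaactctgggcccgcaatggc
The upstream IL1R2 window (chr2:101991710-101991959) held 3 NF-kB forms, 1 PU.1 word and 1 TATA box. The first IL1RN window (chr2:113117721-113117970) held 1 AP-1 word and 2 NF-kB forms, and the third (chr2:113127348-113127597) held 1 NF-kB form and 2 overlapping TATA words on opposite strands. Such matches are common. The NF-kB form occurred in 45.5% of 35116 promoter windows of the same length, PU.1 in 23.6%, the TATA box in 10.7% and AP-1 in 6.57%. The windows of IL1B and IL1RAP, the other IL1R2 window and the second IL1RN window held none of these letters. IL1A had 1 AP-1 word and 1 TATA box in one window and 2 AP-1 words in the other. Of the 4 IL1R1 windows, 3 held a PU.1 word, 2 an NF-kB form and 1 a pair of TATA words. No window was found in the table for IL18 or CASP1.

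Levels are given as normalized log2 signal, the background-subtracted Cy3 signal on a log2 scale minus the 75th percentile of its array, so 0 is the brightness of the 75th percentile and a step of 1 is a factor of 2. A gene was called higher or lower where a probe changed by at least 1 on the log2 scale with an adjusted p of at most 0.05 (limma, all probes tested together). A gene whose probes changed in opposite directions was set aside, as the study did. The arrays reached 75th percentiles of 290.2 to 903.5, 57.5 to 72.8% of their probes were well above background and no spot was saturated. The brightest probe of each member was well above background in every group. Macrophage markers were well above background on all 19 arrays for 11 of 12 genes, and the T-cell marker CD3D and the fibroblast marker COL1A2 on 0. The arrays lay on 4 slides. Slide 1 held UT at 8, 24 and 48 h and UT 96 h replicate 1, slide 2 the other UT 96 h arrays and vit C at 8 h, 24 h and 48 h replicate 1, slide 3 vit C 48 h replicate 2 and slide 4 both vit C arrays at 96 h. Vit C and slide are therefore linked to each other except through UT 96 h, the only UT group on 2 slides. At 96 h, vit C and slide 4 cannot be told apart. Fewer cells making a transcript and less transcript per cell also cannot be told apart in bulk RNA.

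The transcripts of both IL-1 receptors, IL1R1 and IL1R2, were higher at 24 and 96 h than at 8 h, IL18 and CASP1 were higher at 96 h, the antagonist IL1RN was lower at 96 h, and IL1A and IL1B were lower at 96 h in vit C cells. In UT cells, 2 members were higher at 24 h than at 8 h (IL1R1 and IL1R2) and 0 lower, where 1.37% of all genes tested were higher and 1.28% lower. From 8 to 96 h in UT cells, 4 members were higher (IL1R1, IL1R2, IL18 and CASP1) and 1 lower (IL1RN), beside 8.91% and 7.19% of all genes. Of the members, 3 were higher at 24 h than at 8 h in vit C cells (IL1A, IL1R1 and IL1R2) and 0 lower, beside 2.95% and 2.66%. From 8 to 96 h in vit C cells, the same 4 were higher and 2 lower (IL1A and IL1B), beside 11% and 17.9%. IL1RN was set aside there and was also called lower once genes with opposing probes were kept, where 17.5% of genes were lower. IL1RAP, set aside too, was then called higher through a dim probe (adjusted p = 0.0459), and the share of higher genes under that rule was not counted. The comparisons of 24 and 96 h within a group share its 8 h arrays. The median log2 change of the members was 0.52 in UT cells and 0.80 in vit C cells from 8 to 96 h, beside 0.02 and -0.17 over all genes. At 24 h, 0 members were lower also at an unadjusted p, and the methods' t-test called 0 members in either direction in both groups. That test also ended the 5 calls of UT cells from 8 to 96 h (adjusted p = 0.11 for IL1RN, 0.0732 for IL1R1, 0.0826 for IL1R2, 0.442 for IL18 and 0.185 for CASP1) and none of the 6 of vit C cells.

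Markers of other cell types also moved with time, and their part in these changes was not tested. The summed log2 level of the granulocyte markers was 2.05 to 2.17 at 8 h, -0.17 to 0.34 at 24 h and -2.05 to -1.20 at 96 h in UT cells, and 1.92 to 2.30, -0.26 to 0.04 and -0.07 to 0.38 in vit C cells. Such sums follow the brightest markers and do not show that a list moved together. Of the 6 granulocyte markers, 0 were called higher and 1 lower at 24 h in each group. At 96 h, 2 were higher and 2 lower in each group, beside the shares over all genes given above. The median log2 change of the detected ones from 8 to 96 h in UT cells was 0.03. The fibroblast markers went from 0.86 to 1.52 at 8 h to 1.86 to 2.06 at 24 h and 1.89 to 2.54 at 96 h in UT cells, and in vit C cells from 2.40 to 2.65 at 8 h to 2.75 to 2.89 at 96 h. Of these 6, 0 were called at 24 h and 1 higher and 0 lower at 96 h in UT cells. In vit C cells, 2 were higher and 0 lower at 24 h, and 2 higher and 3 lower at 96 h. The macrophage markers were at 9.02 to 9.18 at 8 h, 9.26 to 9.42 at 24 h and 8.999 to 9.085 at 96 h in UT cells, and at 8.84 to 9.09, 9.12 to 9.37 and 9.07 to 9.18 in vit C cells. Of the 12, 4 were called higher and 0 lower (1 at an unadjusted p) at 24 h and 3 higher and 4 lower at 96 h in UT cells, and 3 higher and 1 lower, then 3 higher and 3 lower, in vit C cells. All vit C arrays of 8 h lay on slide 2 and those of 96 h on slide 4, whose 75th percentiles were 434.4 to 447.4 and 787.6 to 903.5, so the change from 8 to 96 h within vit C cells cannot be told apart from slide for any member.

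**Figure D1:**
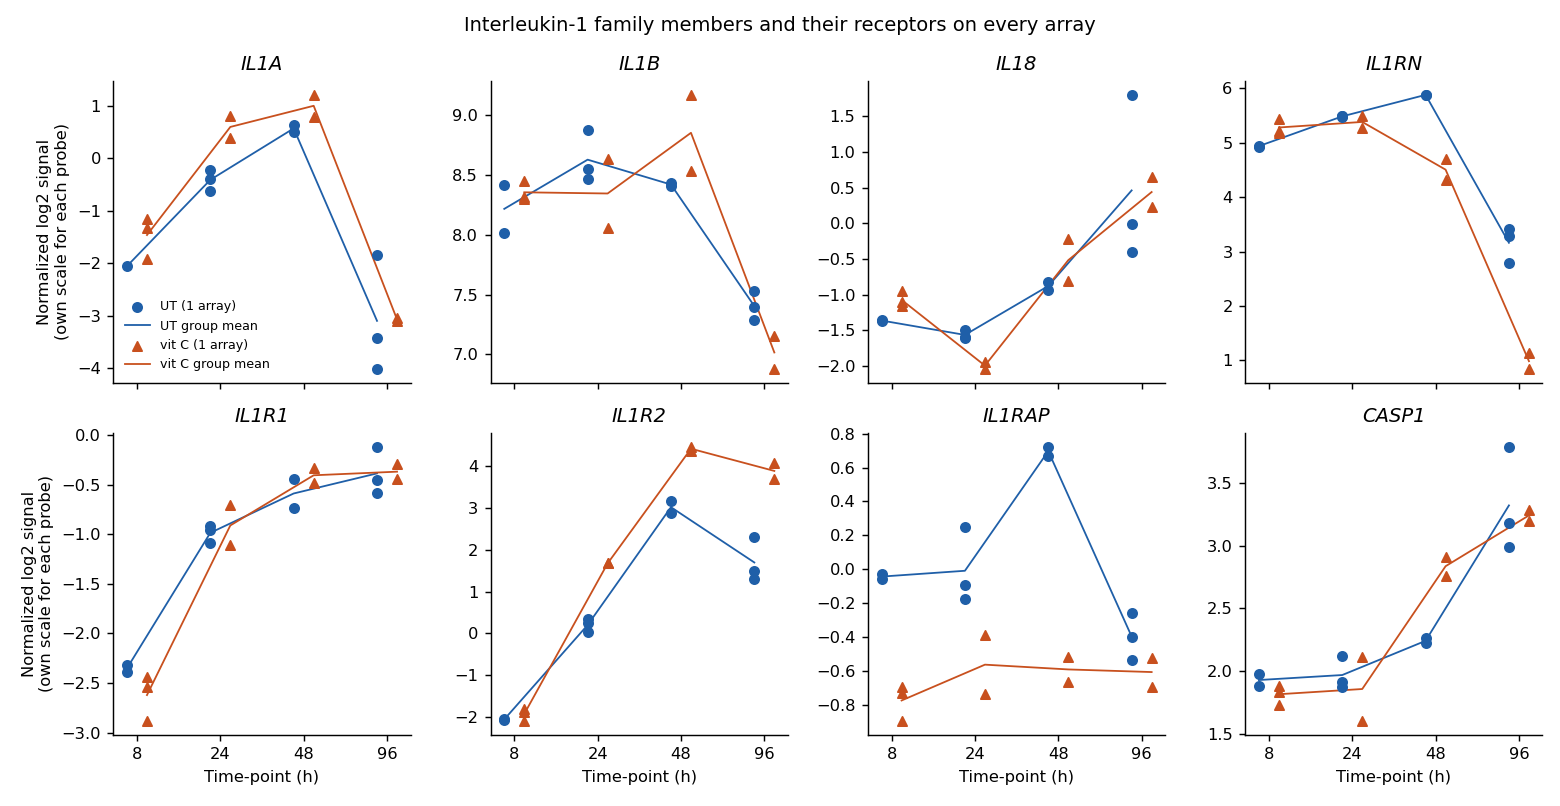
Normalized log2 signal (vertical axes) of the 8 IL-1 system genes on each of the 19 arrays at 8, 24, 48 and 96 h (horizontal axes, times evenly spaced), UT as circles and vit C as triangles, with lines through the group means. The IL1R2 panel shows vit C above UT from 24 h, with vit C at 3.69 and 4.08 against 1.30 to 2.30 at 96 h, and the IL1RN panel shows vit C below UT at 48 and 96 h.

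IL1B, the main secreted IL-1 of macrophages, was lower at 96 h than at 8 h. Its normalized log2 signal in UT cells was 8.01 and 8.42 at 8 h, 8.87, 8.46 and 8.55 at 24 h, 8.44 and 8.40 at 48 h and 7.29, 7.40 and 7.53 at 96 h. With vit C, IL1B gave 8.32, 8.30 and 8.45 at 8 h, 8.63 and 8.06 at 24 h, 8.53 and 9.17 at 48 h and 7.15 and 6.88 at 96 h. All arrays at 96 h were thus below all arrays of the earlier times, in both groups. The fall from 8 to 96 h was -1.34 (2.53-fold, SE 0.24, adjusted p = 0.000741) in vit C cells. In UT cells the log2 change of IL1B was -0.81 (SE 0.24, adjusted p = 0.0243), short of the limit of 1, and without UT 8 h replicate 1 it was -1.02 and called.

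IL1A, the cytokine that acts without caspase-1 cleavage, had its highest group mean at 48 h in both UT and vit C cells. In UT cells its normalized log2 signal was -2.06 on 1 array at 8 h, -0.62, -0.22 and -0.40 at 24 h, 0.50 and 0.64 at 48 h and -3.43, -4.02 and -1.85 at 96 h. The spot of UT 8 h replicate 1 carried an outlier flag and was dropped from the fit. It read 1.15 with the flag ignored, far above its partner. With vit C, IL1A gave -1.15, -1.32 and -1.92 at 8 h, 0.39 and 0.80 at 24 h, 1.21 and 0.79 at 48 h and -3.04 and -3.10 at 96 h. The order 96 h, 8 h, 24 h, 48 h held for the group means of vit C cells, and its 24 and 48 h arrays overlapped. The rise from 8 to 24 h in vit C cells was 2.06 (4.18-fold, SE 0.47, adjusted p = 0.0167) and the fall from 8 to 96 h was -1.61 (3.05-fold, adjusted p = 0.0179). Both calls were lost with the flagged UT spot kept. The changes stayed at 2.06 and -1.61, but the spread shared by all groups grew and the adjusted p became 0.112 and 0.0911. Each call was also lost when any 1 of several arrays was left out (for the rise, vit C 8 h replicate 3 or either 24 h array, and for the fall, vit C 8 h replicate 1 or either 96 h array). In UT cells the change of IL1A from 8 to 24 h, resting on 1 array at 8 h, was 1.65 (adjusted p = 0.178), and 0.04 (adjusted p = 0.979) with the flagged spot kept. From 8 to 96 h it was -1.04 (adjusted p = 0.253), against -2.65 (adjusted p = 0.0156) with the flagged spot kept, -1.67 and called without UT 96 h replicate 3 and -1.37 (adjusted p = 0.0477) within slide 1. The vit C rise to 24 h was not called within slide 2 alone (adjusted p = 0.188).

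IL18, whose precursor is cut by caspase-1, ran the other way. Its normalized log2 signal in UT cells was -1.37 and -1.35 at 8 h, -1.60, -1.49 and -1.60 at 24 h, -0.93 and -0.82 at 48 h and -0.01, -0.41 and 1.80 at 96 h. The vit C values were -0.95, -1.10 and -1.16 at 8 h, -1.94 and -2.04 at 24 h, -0.22 and -0.81 at 48 h and 0.23 and 0.65 at 96 h. IL18 was lowest at 24 h and highest at 96 h in both groups, and UT 96 h replicate 3 stood above every other array. The rise from 8 to 96 h was 1.82 (3.54-fold, SE 0.45, adjusted p = 0.00916) in UT cells and 1.51 (2.85-fold, adjusted p = 0.0185) in vit C cells. Without UT 96 h replicate 3 the UT rise was 1.15 and still called. It was lost without either UT 8 h array and with slide as a fixed term (1.35, adjusted p = 0.229) or with only the compared groups in the fit (adjusted p = 0.186), held within slide 1 alone (1.35, adjusted p = 0.012), and the vit C rise was lost without vit C 96 h replicate 2.

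CASP1, the protease, followed a course like that of its substrate IL18. In UT cells its normalized log2 signal was 1.88 and 1.98 at 8 h, 2.12, 1.91 and 1.87 at 24 h, 2.22 and 2.26 at 48 h and 3.19, 2.99 and 3.79 at 96 h. With vit C, CASP1 gave 1.88, 1.83 and 1.73 at 8 h, 1.60 and 2.11 at 24 h, 2.91 and 2.76 at 48 h and 3.29 and 3.20 at 96 h. The 8 and 24 h arrays overlapped and all 96 h arrays lay above all earlier ones. The rise from 8 to 96 h was 1.40 (2.63-fold, SE 0.23, adjusted p = 0.000456) in UT cells and 1.43 (2.69-fold, adjusted p = 0.000314) in vit C cells. Within slide 1 alone the UT rise was 1.26 with an adjusted p of 0.0184, and with only the compared groups in the fit the call was lost (adjusted p = 0.0813).

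The antagonist IL1RN was lower at 96 h than at 8 h. Its normalized log2 signal in UT cells was 4.93 and 4.95 at 8 h, 5.47, 5.49 and 5.50 at 24 h, 5.88 and 5.88 at 48 h and 3.42, 3.28 and 2.78 at 96 h. The vit C values were 5.44, 5.18 and 5.22 at 8 h, 5.27 and 5.49 at 24 h, 4.70 and 4.31 at 48 h and 1.13 and 0.84 at 96 h. The UT groups did not overlap with each other in time and were highest at 48 h, whereas vit C cells were already below their own 8 h level at 48 h and reached the lowest level of all groups at 96 h. From 8 to 96 h IL1RN fell by 1.78 on the log2 scale in UT cells (3.43-fold, adjusted p = 2.43e-05), and within slide 1 by 1.52 (adjusted p = 0.00715). The change in vit C cells was -4.29 (19.6-fold lower, adjusted p = 7.79e-09 with opposing probes kept). Without UT 8 h replicate 2 the gene was set aside in UT cells, since a second IL1RN probe then opposed the bright one. The change was -1.90 to -1.59 over the left-out fits. Under normexp background correction the UT change was -1.80 and the gene was set aside too. The second probe, well above background on 0 of 19 arrays, also moved the other way in vit C cells, which is why the gene was set aside there.

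IL1R1, the signalling receptor, rose in both groups. Its normalized log2 signal in UT cells was -2.39 and -2.32 at 8 h, -1.09, -0.96 and -0.91 at 24 h, -0.74 and -0.44 at 48 h and -0.45, -0.59 and -0.12 at 96 h. In vit C cells it was -2.44, -2.88 and -2.54 at 8 h, -1.11 and -0.71 at 24 h, -0.33 and -0.48 at 48 h and -0.29 and -0.45 at 96 h. The 8 h arrays lay below all others, and the 48 and 96 h arrays overlapped. The rise from 8 to 24 h was 1.37 (2.58-fold, SE 0.21, adjusted p = 0.00191) in UT cells and 1.71 (3.27-fold, adjusted p = 0.000156) in vit C cells. By 96 h it was 1.96 (3.90-fold, adjusted p = 9.01e-06) and 2.25 (4.76-fold, adjusted p = 1.93e-06). A dimmer second IL1R1 probe was called only from 8 to 96 h in vit C cells, where it rose at least 1.97-fold. Without UT 8 h replicate 2 the gene was set aside for the UT rise to 24 h, since the dim probe then opposed the bright one. That rise was 1.33 to 1.42 over the left-out fits. With only the compared groups in the fit the UT call at 24 h was lost (adjusted p = 0.0667). Under normexp background correction the vit C rise to 96 h was 1.47 and the gene was set aside.

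The decoy receptor IL1R2 had the largest range of the 8 genes over time. In UT cells its normalized log2 signal was -2.05 and -2.06 at 8 h, 0.33, 0.24 and 0.02 at 24 h, 2.88 and 3.16 at 48 h and 1.30, 1.49 and 2.30 at 96 h. In vit C cells it was -1.88, -1.80 and -2.10 at 8 h, 1.67 and 1.67 at 24 h, 4.46 and 4.37 at 48 h and 4.08 and 3.69 at 96 h. The 8 h arrays of both groups overlapped, and in both groups the arrays were highest at 48 h. The UT arrays at 96 h lay between their 24 and 48 h levels, and the vit C arrays at 96 h below their 48 h arrays and above their 24 h arrays. The rise from 8 to 24 h was 2.26 (4.78-fold, adjusted p = 0.000249) in UT cells and 3.60 (12.1-fold, adjusted p = 2.5e-06) in vit C cells. From 8 to 96 h it was 3.75 (13.5-fold, adjusted p = 1.81e-07) in UT cells and 5.81 (56.1-fold, adjusted p = 2.24e-09) in vit C cells. The second IL1R2 probe was not well above background at 8 h and rose by 96 h at least 4.22-fold in UT cells and at least 19.3-fold in vit C cells, the bound being set by the dimmest signal above background.

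IL1RAP, the accessory chain, had no call over time and was set aside in all but 1 of these comparisons because its probes opposed each other. With opposing probes kept, a dim probe for its transcript NM_134470 was called higher from 8 to 96 h in vit C cells (at least 1.61-fold, adjusted p = 0.0459). The values below are of the brightest probe. Its normalized log2 signal in UT cells was -0.06 and -0.03 at 8 h, 0.25, -0.10 and -0.18 at 24 h, 0.72 and 0.67 at 48 h and -0.26, -0.40 and -0.54 at 96 h. In vit C cells it was -0.73, -0.70 and -0.90 at 8 h, -0.74 and -0.39 at 24 h, -0.67 and -0.52 at 48 h and -0.69 and -0.52 at 96 h. The vit C arrays were below the UT arrays of the same time at 8, 24 and 48 h and overlapped with them at 96 h. How many of all genes lacked overlap was not counted. The log2 changes of the brightest IL1RAP probe from 8 h within a group ran from -0.35 to 0.21.

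Vit C cells were then compared with UT cells at each time. The decoy IL1R2 was higher with vit C from 24 h on, while IL1RN and IL1RAP were lower at 48 h, and the cytokines, IL1R1 and CASP1 were called at no time. At 8 h, 0 members were higher and 0 lower of 7 tested, beside 0.33% and 0.223% of all genes, with IL1RN set aside. At an unadjusted p, 1 member was called at 8 h (IL1RAP, through a dim probe for its transcript NM_134470),. At 24 h, 1 member was higher (IL1R2) and 0 lower (0 also unadjusted), beside 0.842% and 0.835%. At 48 h, 1 was higher (IL1R2) and 2 lower (IL1RN and IL1RAP), beside 2.09% and 1.56%. At 96 h, 1 was higher (IL1R2) and 0 lower (0 also unadjusted), beside 2.74% and 9.99%, and IL1RN was set aside. With opposing probes kept, IL1RN was lower at 96 h, where 9.23% of genes were. The 96 h share of lower genes depended on the scaling, with 2630 genes lower here, 440 under quantile normalization, 707 with the percentile over detected probes and 578 under normexp. By the methods' t-test, 0 members were called in either direction at any of the 4 times. The median log2 difference of the members, 0.14, -0.11, 0.40 and -0.05 at the 4 times, was beside -0.05, -0.13, -0.02 and -0.15 over all genes.

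Markers of other cell types moved with some of these comparisons, and their part in the differences was not tested. The fibroblast markers, of which 2 of 6 were well above background on all arrays and COL1A2 on 0, had higher summed log2 levels in vit C than in UT cells at each time (2.40 to 2.65 against 0.86 to 1.52 at 8 h, 2.32 to 2.94 against 1.86 to 2.06 at 24 h, 3.21 to 3.57 against 2.66 to 2.78 at 48 h and 2.75 to 2.89 against 1.89 to 2.54 at 96 h). The lymphocyte markers, of which 4 of 7 were above background on all arrays and CD3D on 0, were higher at 8 h (1.99 to 2.16 against 0.96 to 1.35) and 48 h (2.10 to 2.45 against 1.17 to 1.58) and overlapped at 24 and 96 h. The granulocyte markers, of which 1 of 6 was above background on all arrays and CEACAM8 on 0, were higher at 96 h (-0.07 to 0.38 against -2.05 to -1.20) and overlapped at the other times, and the epithelial markers (2 of 6) were lower at 48 h (1.395 to 1.402 against 1.725 to 1.782) and overlapped otherwise. Singly, none of these markers was called at 8 or 24 h. At 48 h, 1 fibroblast marker was higher, beside 2.09% of all genes. At 96 h, 1 fibroblast marker was higher and 1 lower, and 2 granulocyte markers were higher and 1 lower. There, 1 lymphocyte and 1 epithelial marker were lower, beside 2.74% of all genes higher and 9.99% lower.

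**Figure D2:**
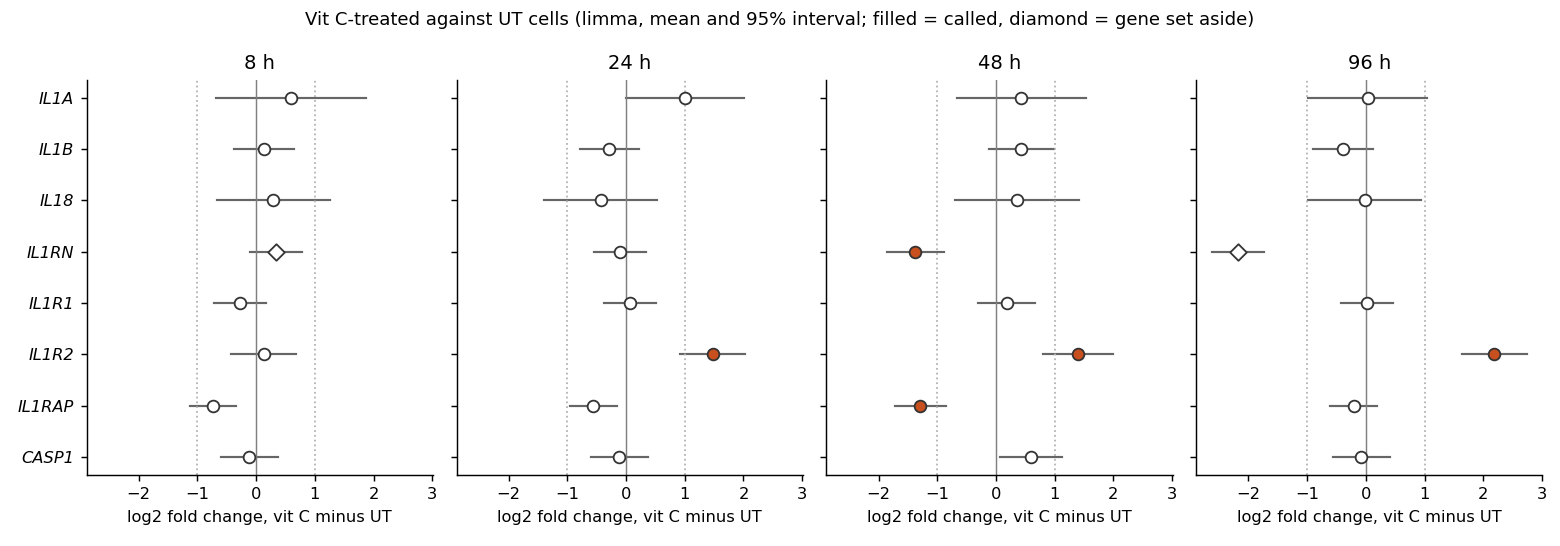
Log2 fold change of vit C over UT (horizontal axes, brightest probe, bars for the 95% confidence interval) for the 8 IL-1 system genes (rows) in a panel for each of 8, 24, 48 and 96 h, with filled points for calls, diamonds for genes set aside because their probes opposed each other and dotted lines at 1 and -1. IL1R2 lies at 1.47, 1.40 and 2.19 from 24 h on, and IL1RN at -1.37 and -2.17 at 48 and 96 h.

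The difference in IL1R2 was 0.13 at 8 h (adjusted p = 0.841). It was 1.47 at 24 h (2.78-fold, SE 0.26, 95% CI 0.92 to 2.02, adjusted p = 0.0127), 1.40 at 48 h (2.64-fold, SE 0.28, adjusted p = 0.0152) and 2.19 at 96 h (4.56-fold, SE 0.26, 95% CI 1.64 to 2.74, adjusted p = 0.000218). At these 3 times every vit C array was above every UT array. Groups this small can separate by chance, and the share of all genes that did so was not counted. The second probe, which matches other bases, gave 1.38 (adjusted p = 0.066), 1.67 (adjusted p = 0.0295) and 2.50 (adjusted p = 0.000961). The 96 h call held without any 1 of the 5 arrays (1.99 to 2.49). The 24 h call was lost without either vit C array (1.38 to 1.54 over its 5 left-out fits) and the 48 h call without any 1 of the 4 arrays (1.26 to 1.54).

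Slide moved with this comparison. With slide as a fixed term the IL1R2 difference was 0.88 (adjusted p = 0.684) at 24 h and 0.85 (adjusted p = 0.738) at 48 h, and at 96 h it could not be estimated. With slide as a random block, the calls held at 24 h (adjusted p = 0.0215), 48 h (adjusted p = 0.0207) and 96 h (adjusted p = 0.000303). Only UT 96 h and vit C 48 h lay on more than 1 slide, so the correlation within slides (0.0395) rested on few arrays. That fit was nearly the main one and could not separate vit C from slide. Within UT at 96 h, the slide 2 arrays of IL1R2 were 0.60 above the slide 1 array. When only the compared groups entered the fit, no member was called at 24, 48 or 96 h, with adjusted p of 0.0706, 0.0715 and 0.155 for IL1R2. By the methods' t-test these calls were lost too, with adjusted p of 0.206, 0.215 and 0.269.

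**Figure D3:**
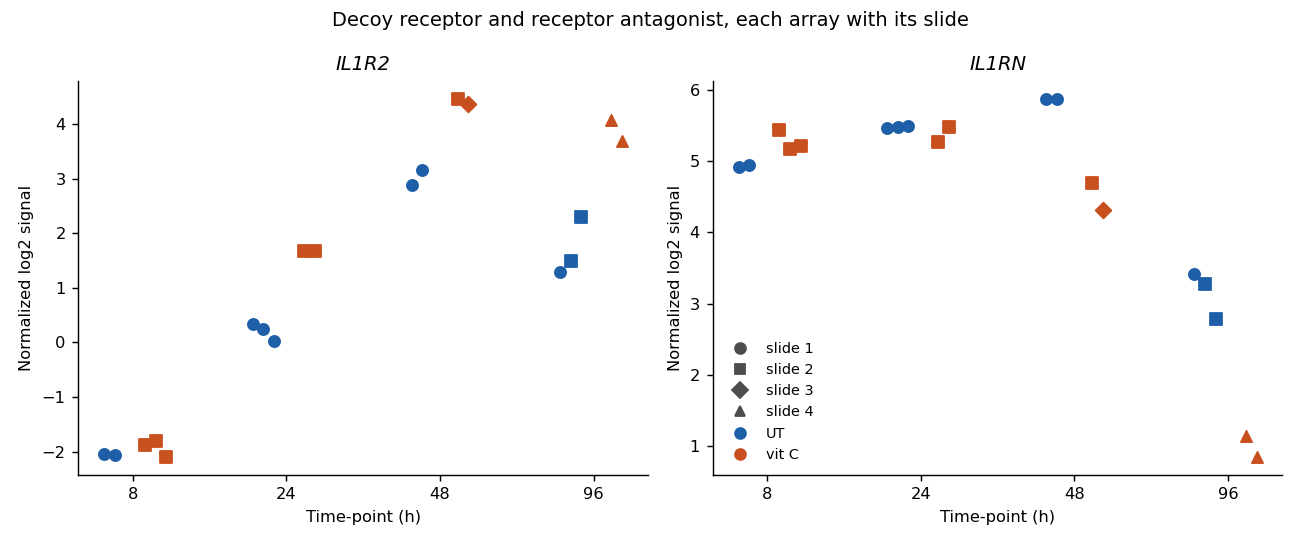
Normalized log2 signal (vertical axes) of IL1R2 and IL1RN on each array by time (horizontal axes), with a marker for each slide and a colour for UT or vit C. The vit C arrays at 96 h all lie on slide 4, which holds no UT array.

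The IL1RN difference was 0.34 at 8 h, where the gene was set aside, and -0.10 at 24 h (adjusted p = 0.791). At 48 h it was -1.37 (2.59-fold lower, SE 0.23, 95% CI -1.86 to -0.89, adjusted p = 0.00515). At 96 h the bright probe gave -2.17 (4.51-fold lower, SE 0.21, 95% CI -2.62 to -1.73, adjusted p = 6.95e-05 with opposing probes kept). All vit C arrays lay below all UT arrays at both times, and the share of all genes without overlap was not counted. Without UT 48 h replicate 1 or vit C 48 h replicate 1 the gene was set aside at 48 h, since its undetected second probe then opposed the bright one. The 48 h call was lost without vit C 48 h replicate 2 (-1.57 to -1.18 over the left-out fits). With slide as a fixed term the 48 h difference was -0.79 (adjusted p = 0.639) and as a random block -1.36 (adjusted p = 0.00724). The random block could not separate vit C from slide. Within UT at 96 h the slide 2 arrays of IL1RN were below the slide 1 array (-0.39).

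IL1RAP was lower with vit C at 48 h by -1.29 (2.45-fold, SE 0.20, adjusted p = 0.00393), and this call held without any 1 of the 4 arrays (-1.36 to -1.21). Its differences at 8, 24 and 96 h were -0.73 (95% CI -1.13 to -0.33, adjusted p = 0.0985), -0.55 (adjusted p = 0.149) and -0.21 (adjusted p = 0.497). The 3 other IL1RAP probes were near background and none was called at 48 h. They were at least 1.85-fold lower (adjusted p = 0.149), at least 1.15-fold lower (adjusted p = 0.395) and, with 1 of 2 vit C arrays above background, changed by -1.07 (adjusted p = 0.078). With slide as a fixed term the 48 h difference was -1.15 (adjusted p = 0.358) and as a random block, which could not separate vit C from slide, -1.28 (adjusted p = 0.00525).

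The remaining members were not called in any comparison of vit C with UT. At 8 h the IL1A difference was 0.59 (adjusted p = 0.732) against the 1 UT array and -1.01 (adjusted p = 0.618) with the flagged spot kept, so its direction is not settled. IL1A was 1.01 higher at 24 h (SE 0.47, 95% CI 0.00 to 2.02, adjusted p = 0.287). CASP1 was 0.60 higher at 48 h (95% CI 0.06 to 1.13, adjusted p = 0.242). IL1B differed by 0.14, -0.28, 0.43 and -0.39 at the 4 times (adjusted p = 0.306 or more). IL1R1 differed by -0.27 to 0.18 and IL18 by -0.43 to 0.36. Groups of 2 or 3 arrays leave wide intervals, so these values do not show that the levels were alike.

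Whether the response to vit C changed with time was tested in the same limma fit. Of the members, 1 gene (IL1RN) had a vit C effect that differed between the 4 times (F test, adjusted p = 0.00317), beside 1.34% of all genes. IL1R2 had an adjusted p of 0.054 and IL1RAP of 0.174. As the vit C 96 h arrays are alone on their slide, this test also carries the slides. A narrower test is free of them, since UT at 8 and 24 h lay on slide 1 and vit C at 8 and 24 h on slide 2, so a difference between slides cancels. This test was added after the data were seen. The rise of IL1R2 from 8 to 24 h was larger in vit C cells by 1.34 (SE 0.36, 95% CI 0.56 to 2.12), with an unadjusted p of 0.00238 in limma and an adjusted p of 0.397. The second IL1R2 probe gave 0.80 (95% CI -0.28 to 1.87, unadjusted p = 0.134 in limma). No member was called in this narrower test (0 members at the adjusted threshold, beside 0.0322% of all genes), and the other members' values ran from -0.72 to 0.42. The IL1A value of 0.42 rests on 1 UT array at 8 h and was 2.02 (SE 1.01, adjusted p = 0.518) with the flagged spot kept, where 0 members were called again.

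**Figure D4:**
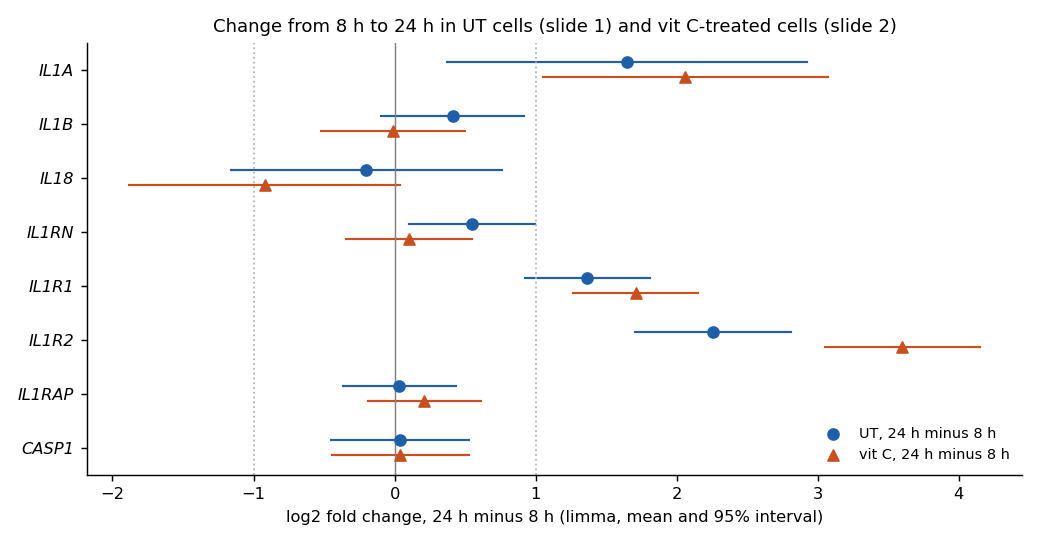
Log2 change from 8 to 24 h (horizontal axis, mean and 95% confidence interval) of the 8 IL-1 system genes in UT cells, all on slide 1, and in vit C cells, all on slide 2. IL1R2 rose by 2.26 in UT and 3.60 in vit C cells, and IL1R1 by 1.37 and 1.71.

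Genes with the most similar course were sought among 9991 genes by Pearson r over the 19 arrays (18 for IL1A), a description of arrays that share time-points and scaling. IL1R2 ran close to PID1 (r = 0.98) and CACNA2D3, a calcium channel subunit (r = 0.97). IL1RN ran closest to SEMA3D, a semaphorin (r = 0.96), CD83, a maturation marker of dendritic cells (r = 0.96), and SLCO4A1, an organic anion transporter (r = 0.96). IL1R1 ran close to ABCA1, a cholesterol exporter (r = 0.97), and CACNA2D3 (r = 0.96). IL1A ran closest to CCL20, a chemokine (r = 0.97), TFPI2 (r = 0.96) and SLC39A14, a zinc transporter (r = 0.95). For IL1B these were STX1A (r = 0.93), SNORD18A and IER3 (both r = 0.91), for IL18 AKTIP, SEC22C and GGH (all r = 0.96), for CASP1 RACGAP1 (r = 0.98), LMO7 (r = 0.98) and GPSM2 (r = 0.97), and for IL1RAP C16orf74 (r = 0.92), CORO2B (r = 0.91) and FAM89B (r = 0.90). Among the members themselves, IL18 and CASP1 (r = 0.91) and IL1R1 and IL1R2 (r = 0.90) ran together, and IL1RN ran against CASP1 (r = -0.81).

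The rest of the IL-1 pathway was described with gene lists. Of 7 further IL-1 family cytokines, 1 was called with vit C, IL33, an alarmin of the family. At an unadjusted p, 1 was lower at 8 h, 1 higher at 24 h, and 1 higher and 1 lower at 96 h. At 96 h, where 2.74% of all genes were higher, IL33 was higher by 3.15 (8.87-fold, SE 0.37, adjusted p = 0.000196), with normalized log2 signals of -0.56 and -0.33 in vit C cells and -4.23, -3.32 and -3.22 in UT cells. At that time vit C and slide 4 cannot be told apart. At 48 h IL33 was uncalled and lay at -3.10 and -3.10 in vit C cells, below -2.45 and -2.24 in UT cells. Its arrays overlapped at 8 and 24 h. Of 23 genes of IL-1 receptor signalling, such as adaptors and kinases, limma called 0 at any of the 4 times (0 also at an unadjusted p), with up to 5 of them set aside for opposing probes. Of 8 further IL-1 family receptors, 1 was called lower at 96 h (IL18RAP), beside 9.99% of all genes, and it was well above background on no array of either group. At the other times 0 were called (at an unadjusted p, 1 lower at 8 h and 1 lower at 48 h). Of 20 inflammasome regulators, 0 were called at 8 or 24 h (at an unadjusted p, 1 lower at 8 h and 2 lower at 24 h). At 48 h, 3 regulators were higher and 0 lower (2 lower at an unadjusted p), beside 2.09% and 1.56% of all genes. They were NLRP12 (2.75, adjusted p = 0.0405, above background on 1 of 2 UT arrays), CARD17 (1.75, adjusted p = 0.0179) and NLRC4, an inflammasome sensor (1.13, adjusted p = 0.00988). At 96 h, 0 were higher (0 also unadjusted) and 2 lower, NLRP1, an inflammasome sensor (-1.44, adjusted p = 0.0336) and CARD18, which was below background in both groups. The 2 lower of 20 stand beside 9.99% of all genes.

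A list of 21 genes known to be induced by IL-1 moved mainly with time. Of 19 detected in UT cells, 13 were higher at 24 h than at 8 h and 0 lower (0 also unadjusted), beside 1.37% and 1.28% of all genes, with a median log2 change of 1.46 beside -0.03 over all detected genes. With vit C, 15 of 20 were higher and 0 lower (1 unadjusted), beside 2.95% and 2.66%, with a median of 1.79 beside 0.02. The stromelysin gene MMP3 rose by 5.37 in UT cells (adjusted p = 2.83e-06) and at least 34.7-fold in vit C cells, and the chemokine gene CCL2 by 2.20 and 2.77. From 8 to 96 h the list went both ways. In UT cells 9 of its genes were lower and 2 higher, beside 7.19% and 8.91% of all genes (median log2 change -0.62, beside -0.07 over all detected genes). With vit C, 8 were lower and 5 higher, beside 17.9% and 11% (median -0.58, beside -0.01). TNF fell by 3.02 and 1.78, and among those that rose in vit C cells were MMP3 (at least 5.56-fold), IL6, a cytokine (at least 4.00-fold), and PTGS2 (4.43-fold).

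Between vit C and UT, 0 of these induced genes were higher (0 also unadjusted) and 2 lower at 8 h, beside 0.33% and 0.223% of all genes. They were LIF, a cytokine (-1.66, adjusted p = 0.0132), and MMP3, at least 1.46-fold lower (adjusted p = 0.0148). At 24 h, 1 was lower, the collagenase gene MMP1 (3.99-fold, adjusted p = 0.000457), beside 0.835% of all genes. At 48 h, 2 were higher, the chemokine gene CXCL1 (1.34, adjusted p = 0.00895) and PTGS2, which encodes cyclooxygenase-2 (2.05, adjusted p = 0.00757), and 2 lower, MMP1 (-1.47, adjusted p = 0.00433) and LIF (-1.02, adjusted p = 0.0454), beside 2.09% and 1.56%. At 96 h, 5 were higher and 2 lower of 21, beside 2.74% and 9.99% of all genes. The lower ones were CSF2, below background in both groups, and ICAM1, through a probe other than its brightest. The higher ones included CSF3, at least 3.66-fold (adjusted p = 0.00132), PTGS2 (1.52, adjusted p = 0.0153) and CXCL1 (1.50, adjusted p = 0.00138). The remaining higher ones were called only through a probe other than their brightest.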

How the data were processed

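Total RNA of THP-1 cells was labelled with Cy3 and hybridized by the authors to a custom Agilent human array (19 arrays, 1 colour). Per the file headers, the deposited scanner files hold probe intensity that Agilent Feature Extraction 10.5.1.1 extracted and background-subtracted. The series matrix holds the authors' log2 values, of which a share of 0.9995 to 0.9998 per array equalled the log2 processed signal minus a constant within 0.01 and which served as an alternative. Probe names and gene names were those of the array design.

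Here, processed signals were put on a log2 scale and centred array by array on their 75th percentile, outlier-flagged spots were dropped, replicate spots gave 1 mean per probe, and the 8 groups, taken from the sample titles, were fitted together in limma 3.58.1 (R 4.3.3), with Benjamini-Hochberg adjustment over all probes of genes without opposing probes. Confidence intervals are 95% intervals of that fit. The methods' t-test was an alternative, as were other scalings, normexp background correction with an offset of 50, filters, slide terms, a replicate block and leaving out arrays. The scripts were tested on simulated data. The labels number the replicates, which the paper calls biological replicates and grew in flasks. Neither states whether they came from separate cultures, so p-values measure the spread between these samples, and the number of arrays limits precision.

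The text names all 8 members by their brightest probe, the called genes of each list with the largest changes (up to 3 per list and time of vit C against UT) and the 3 genes most correlated with each member, some of which are not reported here. MMP3, CCL2, TNF, IL6 and PTGS2 over time, and genes near background, were named after their values were seen. The members and lists were chosen with earlier results of these data known. Figures were drawn with matplotlib 3.10.9 (Python 3.11.15).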

Additional observations from a re-analysis of the deposited data

Results flagged for a closer look

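The vit C effect on IL1RN, the IL-1 receptor antagonist, differed between 8, 24, 48 and 96 h (limma F test, adjusted p = 0.00317). The log2 difference between vit C and UT was 0.34, -0.10, -1.37 and -2.17 at these times. The second IL1RN probe, well above background on 0 of 19 arrays, changed by 0.14 at 96 h, and the part of the slides in this result was not tested, as both vit C arrays at 96 h lay on a slide of their own.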

How the results depend on the processing

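The number of members called depended on how the spread was estimated. By the methods' t-test it was 0 at 24, 48 and 96 h for vit C against UT and 0 for UT 24 h, UT 96 h and vit C 24 h against 8 h. With only the compared groups in the fit it was 0 at 24, 48 and 96 h, 1 for UT 24 h and 3 for UT 96 h against 8 h. At an unadjusted p it was 1 at 8 h and 2 at 24 h. With slide as a fixed term it was 0 at 24 h and 0 at 48 h. That term could not be fitted for the vit C 96 h arrays, nor for the F test. Under normexp correction, with dim probes left out and with opposing probes kept, it was 2 at 96 h, IL1RN being added. For the F test it was 2 under quantile normalization, the percentile over detected probes, normexp correction and without dim probes, IL1R2 being added, and 0 in the added test of 24 h against 8 h alone. Leaving out 1 array at a time gave 0 to 0 members at 8 h, 0 to 1 at 24 h, 1 to 2 at 48 h, 1 to 2 at 96 h, 1 to 2 and 3 to 6 for UT 24 h and 96 h against 8 h, 2 to 3 and 4 to 6 for vit C 24 h and 96 h against 8 h, and 1 to 2 for the F test. No member changed direction among calls.

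The replicate numbers of the titles did not pair the arrays (correlations of deviations from -0.12 to 0.095). With a replicate block the counts were 0, 1, 3 and 1 for vit C against UT, 2 and 5 for UT 24 h and 96 h against 8 h, 3 and 6 for vit C and 1 for the F test, as without it. Scaling moved the split of all calls at 96 h, of which 21.5% were higher in the main setting, 56.3% under quantile normalization, 51.2% with the percentile over detected probes and 27.8% under normexp, and the median of all genes there was -0.15, -0.04 and -0.40 under the main, quantile and normexp settings. At 24 h the share of calls that were higher was 50.2%, 65.7% under quantile normalization and 62.2% under normexp, at 8 h 59.7% and 91.3% under normexp, and for vit C 96 h against 8 h 37.9% and 53.9% under quantile normalization. Of 64 values (8 members in 8 comparisons), 49 kept their side of the threshold by the methods' t-test, 56 with only the compared groups, 60 under normexp, 61 with outlier spots kept and 64 under quantile normalization, with slide as a random block and with the replicate block. With slide as a fixed term 43 of 48 did, and 7 uncalled values had the other sign. The random block was nearly the main fit and could not separate vit C from slide.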
